A study of Mus musculus with 4 samples.

Results

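The 34 genes described here encode the steps of glycolysis and the response to low oxygen, and they were followed in leukocytes sorted from B16 mouse melanomas. They are a list of names among the 31053 genes counted, chosen by name with no threshold on their values in these libraries: 22 genes of glucose uptake, glycolysis, its regulation and lactate export (the glycolysis list) and 12 genes of the hypoxia response (the hypoxia list). All 34 had at least 1 unique molecular identifier (UMI, 1 per captured transcript) in cells of both libraries. B16 is a transplantable melanoma line of the C57BL/6 strain, and tumours of male C57BL/6 mice were taken at day 12 after injection. The mice were either wild-type (labelled WT) or ATPIF1 knock-out (labelled KO); Atpif1 encodes the protein that inhibits the mitochondrial ATP synthase, and neither the allele nor the tissues in which it acts is given in the sources used here. Suspensions of several mice of a genotype were pooled, so each genotype is 1 droplet-based 5′ RNA library without a replicate, and the sources do not say whether the stated number of 6 mice is per genotype. Melanoma cells in the suspensions come from the injected line and are not of either mouse genotype.

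No difference between the libraries or between cell groups was tested, because cells of 1 library are not replicates. Levels are UMIs summed over the cells of a class in a library, scaled to counts per 1000000 UMIs of that sum (CPM), and ratios are log2 ratios of CPM with an exact 95% interval in parentheses that covers counting error only. A member is counted as higher or lower at 1.5-fold (0.58 on the log2 scale) or more among genes with at least 20 UMIs over both sides. Paired values without a further label are in the order WT, KO. The share of all such genes that pass the same fold stands beside each first count.

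The libraries labelled WT and KO held 35152477 and 24385843 UMIs and 4370 and 3211 cells, with medians of 4314.5 and 4266 UMIs per cell, and 29 cell barcodes occurred in both. Leaving those barcodes out turned no list median and changed no count by over 1.5 times. Cells were put into classes by panels of marker genes that hold none of the 34 genes, and every class below is named by that panel. T cells with CD8 and no CD4 transcripts numbered 221 and 359, T cells with CD4 and neither CD8 nor Foxp3 numbered 51 and 83, and monocytes or macrophages numbered 1707 and 1219. Among dendritic cells (DC), type 1 conventional cells (cDC1) numbered 95 and 147, type 2 (cDC2) 251 and 261, and mature migratory cells (Mature DC) 127 and 74. Neutrophils (372 and 20 cells) and melanoma cells (46 and 12) were too few in the library labelled KO to compare libraries, and their levels are given as a description. The 20 neutrophils held 34204 UMIs in all, so their CPM values and their rank among the classes of that library can rest on few UMIs of a gene. Atpif1, the targeted gene, was no lower in the KO-labelled library, at 105 and 265 CPM in CD8 T cells and at 644 and 735 CPM in monocytes or macrophages, and whether the counted reads lie in the deleted part is not given in the sources used here. The direction of every comparison between libraries therefore rests on the label. Empty droplets, barcodes with 10 to 100 UMIs that hold free RNA, carried the glycolysis list at a summed 7691 and 5281 CPM and the hypoxia list at 1479 and 977 CPM.

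Glycolysis splits glucose into pyruvate and yields ATP without oxygen. Glucose enters through GLUT transporters, hexokinase traps it as glucose 6-phosphate, phosphofructokinase commits it to breakdown, and lactate dehydrogenase and the monocarboxylate transporters remove the end product as lactate. When oxygen falls, prolyl hydroxylases such as the Egln3 product no longer mark the HIF-1α protein (Hif1a) for destruction, and the stabilised factor binds short DNA motifs with the core ACGTG or GCGTG near its target genes. Many glycolytic genes and all of Egln3, Adm, Ndrg1, Bnip3, P4ha1, Ero1l, Vegfa and Ankrd37 are known targets. The programme is known from macrophages of poorly perfused tumour regions and, for its glycolytic arm, from activated T cells.

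The promoter windows of the genes around which the later comparisons turn show where such cores lie. RefSeq (GRCm38.p6) gave at least 1 window from 250 bases before to 50 bases after the transcription start for 31 of the 34 genes, with Ero1l listed as Ero1a; Slc2a3, Ndrg1 and Bnip3l had no window. The core ACGTG, on either strand, was in a window of 9 of 10 hypoxia genes and 14 of 21 glycolysis genes, against 5886 of 27025 genes (21.8%) with a window in the table. The core GCGTG was in a window of 8 of 10 and 14 of 21, against 9500 of 27025 (35.2%). Both cores contain a CG pair, and the members' windows are rich in it, with a median of 20 CG pairs in 44 windows against 7 in all 32851 windows, and a median GC content of 62.2% against 52.7%. The shares of the motifs were not compared at matched CG content, and a match is a string of letters, not a shown binding site.

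The 250 bases before the start site are printed, 5′ to 3′ on the strand of the gene, for 6 genes whose levels differ between macrophage subsets in the later comparisons (3 of the hypoxia list, then the glucose transporter and 2 enzymes; not the 6 with the highest ratios) and for Hk3, a hexokinase gene that differed from them between the libraries. Capitals mark ACGTG or GCGTG and their reverse complements, CACGT and CACGC; a run CACGTG holds ACGTG on both strands. The intervals are Egln3 chr12:54203875-54204124 on the minus strand, Bnip3 chr7:138909507-138909756 on the minus strand, Ankrd37 chr8:45999851-46000100 on the minus strand, Slc2a1 chr4:119108495-119108744 on the plus strand, Pgk1 chrX:106186850-106187099 on the plus strand, Ldha chr7:46845554-46845803 on the plus strand and Hk3 chr13:55021386-55021635 on the minus strand.
Egln3: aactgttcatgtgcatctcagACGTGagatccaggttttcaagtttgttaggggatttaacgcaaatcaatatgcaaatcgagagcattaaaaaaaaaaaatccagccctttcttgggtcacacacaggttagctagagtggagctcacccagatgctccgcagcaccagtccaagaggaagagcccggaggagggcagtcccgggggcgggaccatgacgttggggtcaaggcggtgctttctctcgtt
Bnip3: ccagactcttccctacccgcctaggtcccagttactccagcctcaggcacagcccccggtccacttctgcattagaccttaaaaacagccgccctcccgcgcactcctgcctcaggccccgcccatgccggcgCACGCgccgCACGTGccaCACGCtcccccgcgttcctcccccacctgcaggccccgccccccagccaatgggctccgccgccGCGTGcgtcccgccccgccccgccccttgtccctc
Ankrd37: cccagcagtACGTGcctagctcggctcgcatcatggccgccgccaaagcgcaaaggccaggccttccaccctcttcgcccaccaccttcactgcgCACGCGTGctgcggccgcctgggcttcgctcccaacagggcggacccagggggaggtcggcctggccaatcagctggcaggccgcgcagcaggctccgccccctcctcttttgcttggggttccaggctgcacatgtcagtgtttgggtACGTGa
Slc2a1: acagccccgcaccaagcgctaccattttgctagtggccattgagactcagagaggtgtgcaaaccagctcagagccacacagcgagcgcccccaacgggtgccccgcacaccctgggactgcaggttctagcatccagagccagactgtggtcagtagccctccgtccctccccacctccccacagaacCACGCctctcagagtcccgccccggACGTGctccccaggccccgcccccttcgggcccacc
Pgk1: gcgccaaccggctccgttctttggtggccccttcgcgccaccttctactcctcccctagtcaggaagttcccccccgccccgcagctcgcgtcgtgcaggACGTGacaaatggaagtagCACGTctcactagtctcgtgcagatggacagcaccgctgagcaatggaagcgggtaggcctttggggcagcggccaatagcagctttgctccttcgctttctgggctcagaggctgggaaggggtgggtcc
Ldha: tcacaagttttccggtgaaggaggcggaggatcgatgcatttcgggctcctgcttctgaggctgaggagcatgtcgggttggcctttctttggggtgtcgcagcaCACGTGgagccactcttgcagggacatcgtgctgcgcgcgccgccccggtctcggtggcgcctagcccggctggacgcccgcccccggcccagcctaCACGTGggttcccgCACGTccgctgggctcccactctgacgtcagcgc
Hk3: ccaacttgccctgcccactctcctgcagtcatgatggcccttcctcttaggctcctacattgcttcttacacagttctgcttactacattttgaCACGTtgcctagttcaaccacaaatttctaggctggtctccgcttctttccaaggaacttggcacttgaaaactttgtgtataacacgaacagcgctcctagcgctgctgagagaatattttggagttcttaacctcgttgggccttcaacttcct

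Bnip3 has 2 ACGTG and 3 GCGTG matches in these bases, Ankrd37 2 of each, Ldha 5 ACGTG matches and Pgk1 2, while Egln3 has 1 ACGTG match whose first base lies 229 bases before the start and Slc2a1 has 1 of each. Hk3 also has 1 ACGTG match, so the presence of the core in this window did not separate it from the other printed genes. Ldha has 2 windows, of which 1 holds ACGTG, and the window printed was picked as the one with the most ACGTG matches. Its count therefore follows from that choice, while each other printed gene has 1 window.

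Levels by class show which leukocytes carried the 34 transcripts. Monocytes or macrophages were the highest of the 6 classes with at least 50 cells in both libraries for 10 of 22 glycolysis genes and 7 of 12 hypoxia genes, in both libraries. For 28 of the 34 genes the same class was highest in both libraries, and for 16 of those its interval stood apart from that of the next class in each library. The summed glycolysis list was at 11661 and 9202 CPM in monocytes or macrophages, 3083 and 3566 CPM in CD8 T cells and 6020 and 5292 CPM in cDC2. The summed hypoxia list was at 1618 and 1180, 452 and 429 and 677 and 559.9 CPM in the same classes. CD8 T cells lay below the empty droplets of their own library for 30 and 29 of the 34 genes, and monocytes or macrophages for 13 and 7, so free RNA can add to any low value in a T cell.

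**Figure D1:**
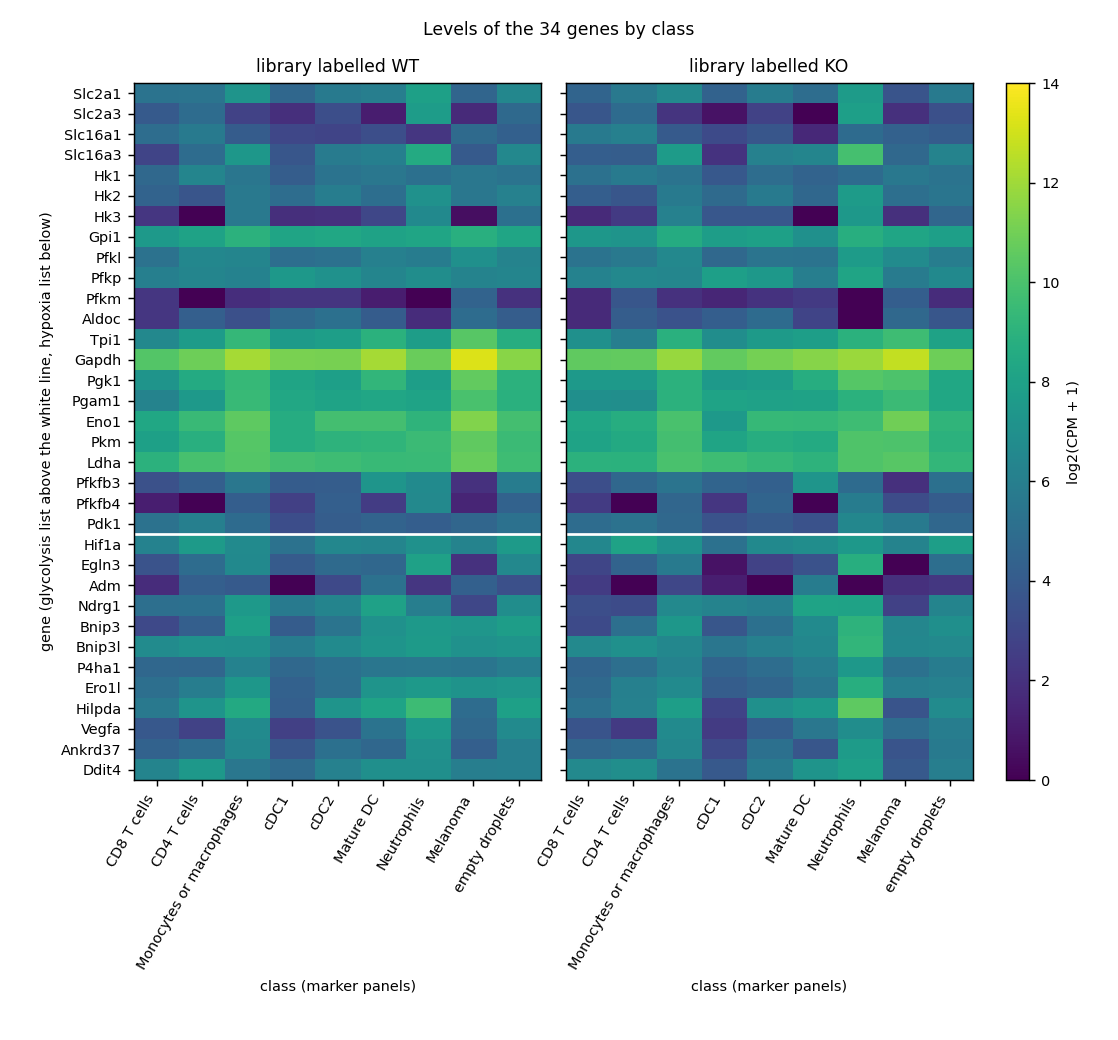
Level of each of the 34 genes (rows) in 8 classes and in empty droplets (columns), as log2(CPM + 1), for the library labelled WT (left) and that labelled KO (right); the white line parts the glycolysis list from the hypoxia list. Gapdh was at 9832 and 6798 CPM in melanoma cells and at 1206 and 1544 CPM in CD8 T cells, and the column of CD8 T cells is darker than that of monocytes or macrophages for most genes.

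Glucose and lactate transporters divided between classes. Slc2a1, which encodes GLUT1, was at 153 and 95.2 CPM in monocytes or macrophages and at 39.6 and 21.7 CPM in CD8 T cells of the libraries labelled WT and KO. Slc2a3, which encodes the high-affinity transporter GLUT3, was highest in CD4 T cells among the 6 classes (29.6 and 29.1 CPM) and low in monocytes or macrophages (5.77 and 3.22 CPM). Neutrophils held it at 209 and 234 CPM, above every other leukocyte class. The lactate carriers showed a like split: Slc16a3, which encodes the exporter MCT4, was at 167 and 202 CPM in monocytes or macrophages and at 6.19 and 17.4 CPM in CD8 T cells. Slc16a1, which encodes MCT1, was at 15.6 and 14.5 CPM in monocytes or macrophages and at 31.0 and 52.1 CPM in CD8 T cells. CD4 T cells carried Slc16a1 at 53.2 and 66.4 CPM, and their interval overlapped that of CD8 T cells in both libraries.

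The 3 hexokinase genes had 3 different leading classes. Hk1 was highest in CD4 T cells (82.7 and 54.0 CPM), where the interval overlapped that of the next class. Hk2 was at 61.2 and 53.5 CPM in cDC2 and at 49.5 and 52.3 CPM in monocytes or macrophages, which did not separate beyond counting error. Hk3, the hexokinase of myeloid cells, was at 49.6 and 69.6 CPM in monocytes or macrophages, apart from every other of the 6 classes in both libraries. Neutrophils held Hk2 at 135 and 205 CPM and Hk3 at 101 and 175 CPM. Among the phosphofructokinase genes, Pfkp marked conventional dendritic cells, with 179 and 240.5 CPM in cDC1 and 134 and 176 CPM in cDC2 against 73.7 and 86.4 CPM in monocytes or macrophages. Pfkl was at 81.6 and 91.9 CPM there, and Pfkm, the muscle form, stayed at or under 12.5 CPM in every one of the 6 classes and was at 21.3 and 16.9 CPM in melanoma cells. Aldoc, an aldolase best known from brain, was highest in cDC2 (35.5 and 28.3 CPM), not apart from cDC1.

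The middle and lower steps of the pathway were abundant in every class and highest in monocytes or macrophages for Tpi1, Pgk1, Pgam1, Eno1, Pkm and Ldha in both libraries. Ldha, the lactate dehydrogenase A gene, was at 1223 and 1006 CPM in monocytes or macrophages and at 500.3 and 507 CPM in CD8 T cells. Gapdh was at 4479 and 3616 CPM in monocytes or macrophages and at 4510 and 2834 CPM in Mature DC, and in the library labelled WT these classes did not separate. Mature DC also held the marker panel of melanoma cells at 426 and 28.9 CPM, and the part of melanoma RNA in their Gapdh level was not tested. Gapdh, Pgk1, Eno1 and Ldha have many processed copies in the genome and Eno1 the near-identical Eno1b, so reads shared with a copy may be missing from these counts. Melanoma cells stood above monocytes or macrophages in both libraries for 12 of 22 glycolysis genes and for none of the 12 hypoxia genes; Gapdh was at 9832 and 6798 CPM and Pgk1 at 1567 and 1099 CPM. Of the regulators of flux, Pfkfb3, which makes the activator of phosphofructokinase, was at 159 and 157 CPM in Mature DC against 45.1 and 40.3 CPM in monocytes or macrophages, apart in both libraries. Pfkfb4, its relative, was at 95.6 and 58.5 CPM in neutrophils and 17.4 and 23.4 CPM in monocytes or macrophages. Pdk1, which restrains pyruvate entry into mitochondria, was highest in CD4 T cells (65.0 and 37.4 CPM), not apart from CD8 T cells.

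The transcription factor gene and the targets of the hypoxia response did not peak in the same class. Hif1a, which encodes the oxygen-regulated subunit itself, was highest in CD4 T cells among the 6 classes (195 and 266 CPM), against 103 and 138 CPM in monocytes or macrophages, and regulatory T cells (32 and 42 cells) held it at 299.6 and 331 CPM. Its known targets Egln3, Bnip3, Vegfa, Ero1l, Hilpda, P4ha1 and Ankrd37 were highest in monocytes or macrophages. Bnip3, a mitophagy receptor, was at 242 and 168 CPM there and at 7.43 and 7.96 CPM in CD8 T cells. Egln3 was at 98.7 and 50.8 CPM and 11.1 and 6.51 CPM in the same classes. Vegfa, the angiogenic growth factor, was at 102 and 104 CPM and 13.6 and 11.6 CPM. Mature DC led for Ndrg1 (262 and 275 CPM; monocytes or macrophages 187 and 94.3 CPM) and for Adm, the vasodilator peptide adrenomedullin (36.9 and 57.9 CPM; monocytes or macrophages 14.4 and 6.82 CPM). Bnip3l, a relative of Bnip3, and Ddit4, an inhibitor of mTORC1 signalling, changed their leading class between the libraries, and in neither library was the leading class apart from the next beyond counting error. Bnip3l ranged from 57.2 to 152 CPM over the 6 classes of the library labelled WT, and Ddit4 was at 177 and 120.4 CPM in CD4 T cells and 126 and 149 CPM in Mature DC. Neutrophils exceeded every other leukocyte class in both libraries for 6 of 22 glycolysis and 5 of 12 hypoxia genes, among them Hilpda, a lipid-droplet protein, at 787 and 1491 CPM.

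Within monocytes or macrophages, subsets were set apart by 1 marker at a time. Cells positive for Arg1, the arginase gene of suppressive tumour macrophages, held almost the whole module at higher levels than Arg1-negative cells in both libraries. There were 512 and 421 Arg1-positive cells, with Arg1 itself at 4552 and 3505 CPM. The summed glycolysis list was at 19939 and 13295 CPM in them and at 8102 and 6866 CPM in Arg1-negative cells. The summed hypoxia list was at 3561 and 2088 CPM and 783 and 661 CPM. In the library labelled WT, 30 of 34 members were higher and 1 lower in Arg1-positive cells, where 8.88% of all genes were higher and 22% lower. In the library labelled KO, 28 were higher and 0 lower, where 7.42% of all genes were higher and 9.95% lower. The members higher in both libraries numbered 27, made up of 15 glycolysis genes and all 12 hypoxia genes. The median log2 ratio was 1.17 and 0.95 for the glycolysis list and 2.33 and 1.84 for the hypoxia list, beside -0.22 and -0.06 for all genes tested.

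Hypoxia genes stood furthest apart. Egln3 was at 263 CPM in Arg1-positive and 28.3 CPM in Arg1-negative cells of the library labelled WT, and at 108 and 18.1 CPM in that labelled KO. Its log2 ratios were 3.22 (3.02 to 3.41) and 2.58 (2.24 to 2.93). Bnip3 was at 586 against 94.2 CPM and at 339 against 69.9 CPM. The intervals of positive and negative cells did not overlap for either gene in either library, and the log2 ratios of Bnip3 were 2.64 (2.53 to 2.75) and 2.28 (2.10 to 2.46). Vegfa was at 255 against 36.8 CPM and at 191 against 54.0 CPM, with log2 ratios of 2.79 (2.62 to 2.97) and 1.82 (1.61 to 2.04). Ero1l, the oxidase that forms disulphide bonds in the endoplasmic reticulum, had log2 ratios of 2.94 (2.80 to 3.08) and 1.92 (1.70 to 2.14), and Hilpda had 1.99 (1.91 to 2.08) and 1.98 (1.83 to 2.12). Adm had the highest ratio in the library labelled WT, 3.30 (2.78 to 3.85) and 2.09 (1.22 to 3.03) in the libraries labelled WT and KO, but at low levels: 38.6 against 3.92 CPM and 13.3 against 3.12 CPM. The 26 Arg1-positive cells with the most Adm UMIs, 5% of them, held 67.1% of all Adm UMIs of the subset in the library labelled WT. Hif1a itself had the smallest log2 ratios of the hypoxia list, 0.93 (0.78 to 1.09) and 0.72 (0.55 to 0.89). Ankrd37 had 2.34 and 1.85, Ndrg1 2.32 and 1.67, Ddit4 2.13 and 1.39, Bnip3l 1.36 and 1.04 and P4ha1, a collagen prolyl hydroxylase, 1.14 and 0.83.

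Among glycolysis genes the glucose transporter gene Slc2a1 led. It was at 355 against 66.6 CPM in the library labelled WT and at 172 against 51.6 CPM in that labelled KO, with log2 ratios of 2.41 (2.28 to 2.55) and 1.73 (1.52 to 1.95). Pgk1, the first ATP-yielding enzyme of the pathway, had 1.81 (1.74 to 1.87) and 1.38 (1.28 to 1.47). Enzymes from Gpi1 to Ldha had like ratios: those of Gpi1, Tpi1, Gapdh, Pgam1, Eno1, Pkm and Ldha lay between 1.14 and 1.44 in the library labelled WT and between 0.86 and 1.16 in that labelled KO. Slc16a3 had 1.60 and 1.06, Hk1 1.44 and 1.14, Pfkl 1.33 and 0.98, Pdk1 1.13 and 0.96, Hk2 1.09 and 0.90 and Aldoc 0.99 and 0.91. Isoforms of 1 step did not share the difference. Hk3 had 0.44 (0.22 to 0.67) and 0.48 (0.24 to 0.73) and Pfkfb4 -0.01 (-0.43 to 0.39) and -0.02 (-0.47 to 0.42), both under 1.5-fold in both libraries. Pfkp had 0.76 (0.57 to 0.94) and -0.07 (-0.30 to 0.15), Pfkfb3 0.98 and 0.46 and Slc16a1 0.70 and 0.34, higher in the library labelled WT alone. Pfkm (-0.83 (-2.27 to 0.39) and 0.57 (-0.73 to 1.84)) and Slc2a3 (0.08 and 1.49) were scarce in these cells; Pfkm changed sign between the libraries, and Slc2a3 lay near 0 in that labelled WT.

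**Figure D2:**
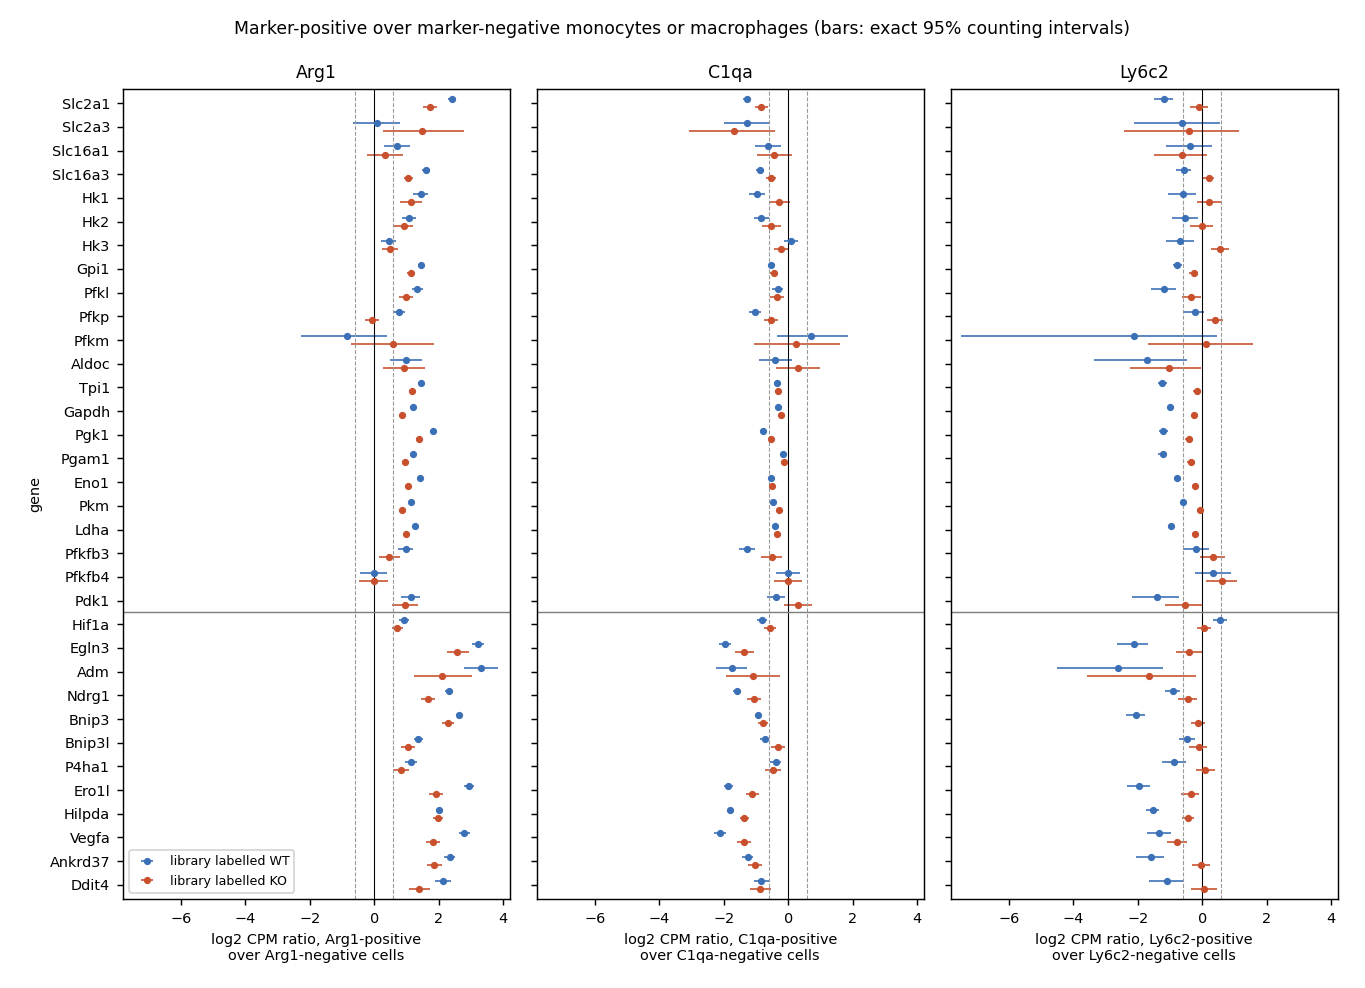
Log2 CPM ratio (x axis) of marker-positive over marker-negative monocytes or macrophages for each of the 34 genes (y axis), for Arg1, C1qa and Ly6c2 in turn, in the libraries labelled WT (blue) and KO (red); bars are exact 95% counting intervals, dashed lines 1.5-fold, and the grey line parts the lists. The hypoxia genes lie to the right for Arg1, up to 3.30 for Adm, and to the left for C1qa, and for Ly6c2 the red points lie nearer 0 than the blue ones.

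The difference in Arg1-positive cells was seen in shares of cells as well as in sums. Egln3 had a UMI in 61.9% of Arg1-positive cells of the library labelled WT and, after each cell was thinned to 1000 UMIs, in 24.4% (20.8 to 28.4). The thinned share was 3.60% in Arg1-negative cells. In the library labelled KO the thinned shares were 12.1% (9.15 to 15.6) and 2.13%. Median depth was alike in the subsets, at 6922.5 and 7067 UMIs per cell in Arg1-positive and Arg1-negative cells of the library labelled WT and 5878 and 5505 in that labelled KO. Transcripts of the melanoma panel (Dct, Pmel, Mlana, Tyrp1 and Tyr) were at 154 CPM in Arg1-positive and 38.1 CPM in Arg1-negative cells of the library labelled WT, and at 15.7 and 18.1 CPM in that labelled KO. Without any cell that held a UMI of this panel, the medians in the library labelled WT were 1.20 for the glycolysis list and 2.27 for the hypoxia list, and in that labelled KO 1.00 and 1.90.

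Other genes of these pathways that are not among the 34 showed the same direction less uniformly. Of 35 such genes, 34 could be compared in the library labelled WT, where 19 were higher and 2 lower in Arg1-positive cells, and 31 in that labelled KO, where 14 were higher and 2 lower. P4ha2, another collagen prolyl hydroxylase, had log2 ratios of 3.51 (2.79 to 4.30) and 2.22 (1.23 to 3.32), and Mxi1, a MYC antagonist, 2.48 (2.29 to 2.67) and 2.06 (1.75 to 2.38). Gys1, the glycogen synthase gene, had 2.34 (1.99 to 2.69) and 1.84 (1.33 to 2.36) and Mif, a cytokine gene and HIF target, 1.47 (1.43 to 1.52) and 1.14 (1.08 to 1.20). Slc2a6, which encodes another GLUT family member, was lower in Arg1-positive cells, at -1.91 (-2.82 to -1.10) and -0.88 (-1.53 to -0.28).

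C1qa, a complement gene of resident-like macrophages, gave the opposite picture. C1qa-positive cells (732 and 614) were lower for 20 of 34 members and higher for 1 in the library labelled WT, where 12.7% of all genes were lower and 20.2% higher. The 1 higher member was Pfkm, with a log2 ratio of 0.70 (-0.35 to 1.84), an interval that spans 0. In the library labelled KO 11 were lower and 0 higher, where 9.13% of all genes were lower and 12.7% higher. The same 11 were lower in both: Slc2a1, Slc2a3, Egln3, Adm, Ndrg1, Bnip3, Ero1l, Hilpda, Vegfa, Ankrd37 and Ddit4. Of the 11, 9 belong to the hypoxia list. Vegfa was at 40.8 and 62.5 CPM in C1qa-positive and 178 and 162 CPM in C1qa-negative cells, with log2 ratios of -2.12 (-2.31 to -1.94) and -1.38 (-1.59 to -1.17), and Egln3 had -1.97 (-2.15 to -1.79) and -1.36 (-1.66 to -1.07). The median was -0.51 and -0.35 for the glycolysis list and -1.43 and -1.05 for the hypoxia list, beside 0.15 and 0.05 for all genes. Median depth was not alike, at 9271.5 and 6823.5 UMIs per cell in C1qa-positive and 5808 and 4898 in C1qa-negative cells. Of the other pathway genes, 16 were lower and 1 higher of 34 in the library labelled WT, and 9 lower and 2 higher of 31 in that labelled KO. The gates overlapped: 165 of 512 Arg1-positive cells (32.2%) were also C1qa-positive in the library labelled WT and 214 of 421 (50.8%) in that labelled KO.

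Ly6c2 marks inflammatory monocytes, and the number of members that differed with it was unlike in the libraries. Of the 34 members, 25 were lower and 0 higher in the 233 Ly6c2-positive cells of the library labelled WT, where 24.8% of all genes were lower and 13.2% higher. In the 267 such cells of the library labelled KO, 4 were lower and 1 higher, where 15.1% of all genes were lower and 9.04% higher. Adm, Aldoc and Vegfa were lower in both, Vegfa with log2 ratios of -1.34 (-1.71 to -0.98) and -0.78 (-1.09 to -0.48); Slc16a1 (-0.63 (-1.49 to 0.14)) was lower and Pfkfb4 (0.60 (0.10 to 1.07)) higher in that labelled KO. The glycolysis median was -0.78 and -0.19 and the hypoxia median -1.44 and -0.25, beside -0.12 and -0.05 for all genes. Of the other pathway genes, 14 were lower and 4 higher in the library labelled WT and 6 lower and 1 higher in that labelled KO. Hif1a went the other way in the library labelled WT, at 0.56 (0.35 to 0.77). Of Ly6c2-positive cells, 13 of 233 (5.58%) were also Arg1-positive in the library labelled WT and 56 of 267 (21.0%) in that labelled KO, and Arg1 was at 284 and 832 CPM. With the contrast drawn within Arg1-negative cells of the library labelled WT, 15 members were lower, the medians were -0.42 and -0.60, and Ndrg1 turned from -0.91 to 0.24. With cells positive for Ly6c2 alone against Ly6c2-negative cells, 27 members were lower in the library labelled WT and 18 in that labelled KO. The medians in the library labelled KO were then -0.52 and -0.83. The gap between the libraries in the number of lower members was narrower there. The share of all genes that were lower is not given for this contrast or for that within Arg1-negative cells.

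Cells with 1 marker above its gate and not the others show these levels with the overlap removed. Egln3 was at 346 and 152 CPM in cells with Arg1 alone, at 10.6 and 8.04 CPM in cells with C1qa alone and at 6.10 and 17.3 CPM in cells with Ly6c2 alone. Vegfa was at 349 and 304 CPM, 12.9 and 30.1 CPM and 36.6 and 50.5 CPM in the same order. Slc2a1 was at 422 and 219.7 CPM, 41.8 and 30.5 CPM and 70.6 and 70.6 CPM. For these 3 genes the cells with Arg1 alone were the highest of the 3 groups in both libraries, and the gaps were smaller for Hk3, with 52.1 and 81.2 CPM, 44.9 and 52.2 CPM and 29.7 and 75.0 CPM. Cells with both Arg1 and C1qa held Egln3 at 148 and 72.7 CPM, between the cells with either marker alone.

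**Figure D3:**
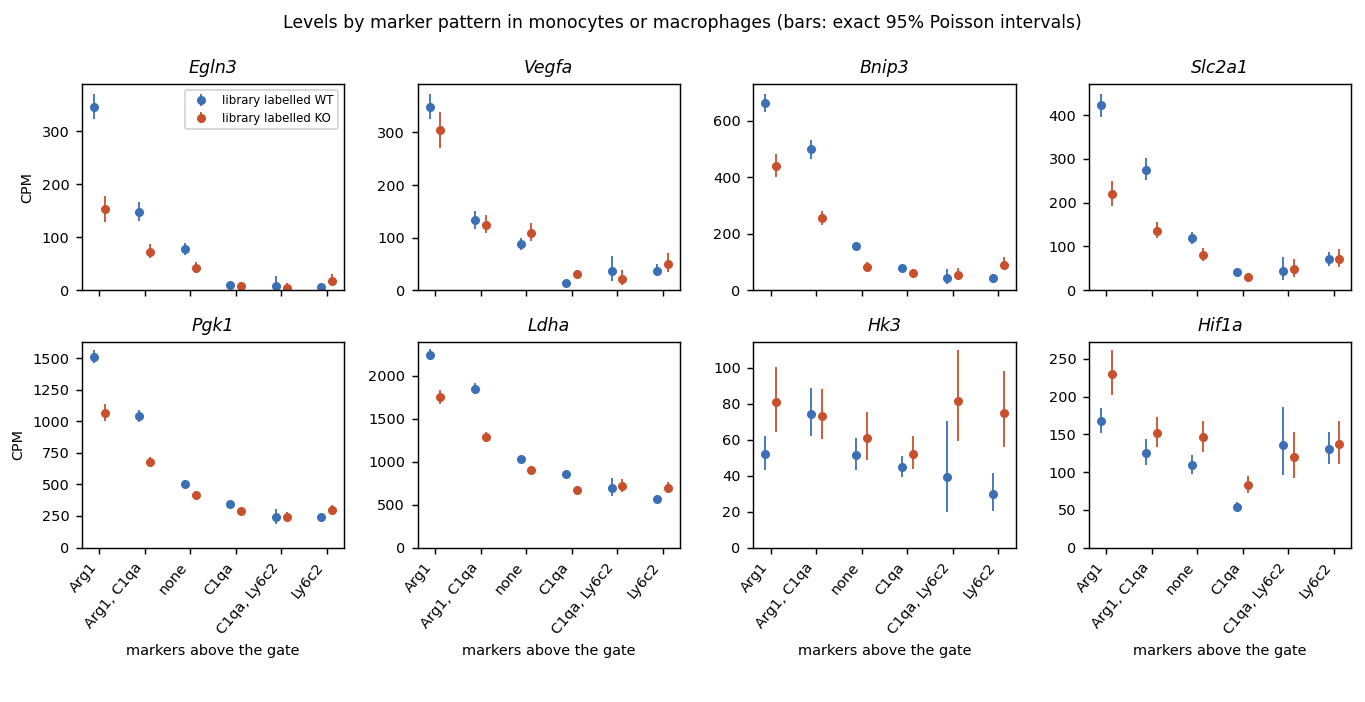
Level in CPM (y axis, from 0) of 8 members in monocytes or macrophages by the markers above the gate (x axis), for the libraries labelled WT (blue) and KO (red), with exact 95% Poisson intervals; patterns that join Arg1 with Ly6c2 are not drawn. Egln3, Vegfa, Bnip3, Slc2a1 and Pgk1 are highest in cells with Arg1 alone, at 1512 and 1069 CPM for Pgk1 in the libraries labelled WT and KO, and the red points of Hk3 lie above the blue ones in cells with Arg1 alone.

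The comparison the design is built around sets the KO-labelled library against the WT-labelled one within each class. In monocytes or macrophages 7 of 34 members were lower and 0 higher in the library labelled KO, where 7.53% of all genes were lower and 6.47% higher. The median log2 ratio was -0.17 for the glycolysis list and -0.55 for the hypoxia list, beside 0.00 for all genes, and over the alternatives of processing it stayed between -0.29 and -0.16 and between -0.67 and -0.53. Ndrg1, a stress-induced gene, was at 187 and 94.3 CPM, a log2 ratio of -0.99 (-1.11 to -0.87). Egln3 was at 98.7 and 50.8 CPM, a ratio of -0.96 (-1.12 to -0.80). Both were lower in the library labelled KO by more than counting error, as were Ero1l (166 and 101 CPM; -0.72 (-0.83 to -0.60)), Slc2a1 (153 and 95.2 CPM; -0.69 (-0.81 to -0.57)) and Hilpda (366 and 229 CPM; -0.68 (-0.75 to -0.60)). Adm (-1.07 (-1.53 to -0.64)) and Slc2a3 (-0.84 (-1.54 to -0.19)), both scarce, complete the 7. The enzymes of the lower pathway had smaller ratios on the same side, from -0.28 (-0.32 to -0.24) for Ldha to -0.52 (-0.56 to -0.49) for Eno1. Vegfa (0.02 (-0.11 to 0.14)), Ankrd37 (0.00 (-0.13 to 0.14)) and P4ha1 (0.00 (-0.15 to 0.15)) lay at 0, so the hypoxia list did not differ as a whole.

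Members on the other side in monocytes or macrophages were under 1.5-fold. Hk3 was at 49.6 and 69.6 CPM, a log2 ratio of 0.49 (0.32 to 0.65), and Hif1a at 103 and 138 CPM, a ratio of 0.42 (0.31 to 0.54). Slc16a3 had 0.27 (0.18 to 0.37), Pfkfb4 0.43 (0.15 to 0.71), Pfkp 0.23 (0.09 to 0.37) and Pfkl 0.17 (0.04 to 0.31). Hif1a and its targets Egln3 and Slc2a1 therefore had ratios of opposite sign in this class. Of the other pathway genes, 4 of 34 were lower, Maff (-1.07 (-1.25 to -0.89)), Cited2 (-0.80 (-0.88 to -0.72)), Mxi1 (-0.66 (-0.83 to -0.50)) and Eno2 (-0.74 (-2.11 to 0.47)), and 1 was higher, Slc2a6 (0.68 (0.32 to 1.04)). Cited2 is an inhibitor of HIF that is itself a HIF target. The melanoma panel was at 72.8 and 17.2 CPM in this class; without cells that held a UMI of it (1389 and 1111 cells left) the medians were -0.24 and -0.58. S100a8 and S100a9, transcripts abundant in neutrophils and in the free RNA, were at 163 and 36.0 CPM in this class. In empty droplets they were at 4869 and 812.5 CPM, so their levels do not compare the amount of free RNA between the libraries. The share of free RNA estimated from both was 3.35% and 4.43%.

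The list medians lay further below 0 in the Arg1-positive subset and above 0 in the Ly6c2-positive one. In Arg1-positive cells 15 of the 33 members that could be compared were lower and 0 higher in the library labelled KO, where 8.39% of all genes were lower and 13.8% higher. The medians were -0.40 for the glycolysis list and -0.80 for the hypoxia list, beside 0.12 for all genes. Ndrg1 was at 425 and 167 CPM, a log2 ratio of -1.35 (-1.49 to -1.20). Egln3 was at 263 and 108 CPM (-1.28 (-1.46 to -1.10)), Ero1l at 424 and 190.1 CPM (-1.16 (-1.30 to -1.02)) and Slc2a1 at 355 and 172 CPM (-1.05 (-1.20 to -0.90)). The intervals of these 4 genes lie wholly below those of the same genes in C1qa-positive cells, a group that shares cells with this one. Adm had -1.54 (-2.08 to -1.02), Hilpda -0.82 (-0.91 to -0.72), Bnip3l -0.81, Bnip3 -0.79 and Ddit4 -0.60. The 6 enzymes past the fold were Eno1 (-0.79 (-0.84 to -0.74)), Pkm (-0.69), Pgk1 (-0.65), Tpi1 (-0.63), Gpi1 (-0.61) and Pgam1 (-0.59). Hk3 (0.48 (0.22 to 0.74)) and Hif1a (0.25 (0.08 to 0.42)) were again on the other side. Of the other pathway genes 9 of 32 were lower, Cited2 at -1.51 (-1.64 to -1.38), and 3 higher.

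The make-up of the subset moved with this difference. A larger share of Arg1-positive cells was also C1qa-positive in the library labelled KO (50.8% against 32.2%), and Arg1 itself was lower there. In cells with Arg1 alone the medians were -0.47 and -0.61, and in cells with both Arg1 and C1qa -0.38 and -0.81, so both medians were below 0 in each of these groups; cells with Arg1 and Ly6c2 were not compared. With Arg1 alone 10 of 33 members were lower and 2 higher, where 10.1% of all genes were lower and 17.3% higher. Of the enzymes past the fold in all Arg1-positive cells only Pkm (-0.64 (-0.72 to -0.55)) was past it there, and Hk3 (0.64 (0.22 to 1.05)) and Pfkfb4 (0.60 (-0.21 to 1.38)) were the higher members. With both Arg1 and C1qa 15 of 32 were lower and 0 higher, where 8.75% of all genes were lower and 12.9% higher. The melanoma panel was at 154 and 15.7 CPM in Arg1-positive cells, and without cells that held a UMI of it the medians were -0.45 and -0.82, with 12 members lower.

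In C1qa-positive cells 2 of 34 members were lower and 2 higher in the library labelled KO, where 7.99% of all genes were lower and 7.32% higher, with medians of 0.01 and -0.26 beside -0.03 for all genes. Vegfa was at 40.8 and 62.5 CPM (0.61 (0.38 to 0.85)) and Hif1a at 76.4 and 115 CPM (0.59 (0.41 to 0.76)), both higher, while Ndrg1 (-0.59 (-0.79 to -0.40)) and Slc2a3 (-1.06 (-2.41 to 0.11)) were lower. In Ly6c2-positive cells 14 of the 30 members compared were higher and 0 lower, where 13.4% of all genes were higher and 10.1% lower. The medians were 0.47 and 0.71 beside 0.04. Hk3 was at 32.4 and 93.4 CPM (1.53 (1.06 to 2.02)), Bnip3 at 63.5 and 156 CPM (1.30 (0.95 to 1.65)) and Ankrd37 at 31.1 and 85.9 CPM (1.46 (0.98 to 1.97)). These 3 stood above the library labelled WT by more than counting error. Pfkl (0.99), Slc16a3 (0.96), P4ha1 (0.87), Ddit4 (0.86), Ero1l (0.83), Pfkp (0.76), Egln3 (0.71), Pdk1 (0.70), Tpi1 (0.61), Vegfa (0.60) and Pfkfb4 (0.59) complete the 14, the intervals of Pdk1 and Pfkfb4 spanning 0. Since more Ly6c2-positive cells of that library were also Arg1-positive, cells with Ly6c2 alone were compared as well, where the medians were 0.28 and 0.26. There 9 of 29 members were higher and 4 lower, where 14.3% of all genes were higher and 12.8% lower. The lower members were Bnip3l (-0.98 (-1.56 to -0.43)), Ndrg1 (-0.69 (-1.22 to -0.19)), Hilpda (-0.69 (-1.18 to -0.22)) and Slc16a1 (-0.69 (-2.33 to 0.74)).

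**Figure D4:**
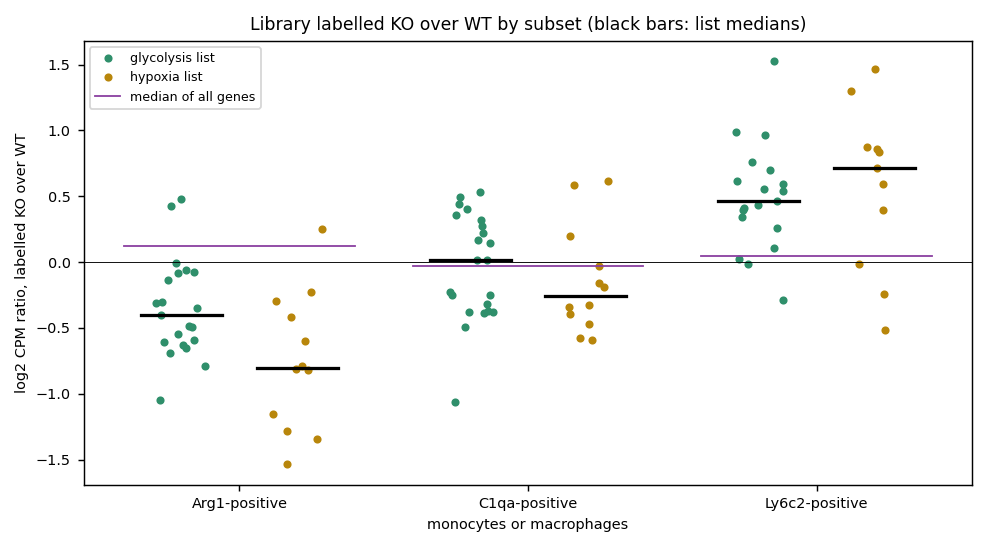
Log2 CPM ratio (y axis) of the KO-labelled over the WT-labelled library for each member compared (points) in Arg1-positive, C1qa-positive and Ly6c2-positive monocytes or macrophages (x axis); black bars are list medians and purple lines the median of all genes. The hypoxia medians run from -0.80 in Arg1-positive to 0.71 in Ly6c2-positive cells.

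In CD8 T cells, the cells the series names, both list medians lay below that of all genes, and few members differed. Of the 27 members with enough UMIs 3 were higher and 2 lower in the library labelled KO, where 29.3% of all genes were higher and 7.75% lower. The median was 0.10 for the glycolysis list and -0.19 for the hypoxia list, beside 0.27 for all genes, and both signs changed with the processing (-0.17 to 0.22 and -0.46 to 0.08). Pgam1, a mutase of lower glycolysis, was at 75.5 and 123 CPM, a log2 ratio of 0.70 (0.27 to 1.15). The lactate carrier genes were higher, Slc16a1 at 31.0 and 52.1 CPM (0.75 (0.08 to 1.47)) and Slc16a3 at 6.19 and 17.4 CPM (1.49 (0.07 to 3.23)). Their intervals end near 0, and Slc16a3 rests on the lowest levels. Ndrg1 was at 33.4 and 9.41 CPM (-1.83 (-2.91 to -0.83)) and Slc2a1 at 39.6 and 21.7 CPM (-0.87 (-1.64 to -0.10)), both lower. Gapdh was at 1206 and 1544 CPM (0.36 (0.25 to 0.47)) and Tpi1 at 92.9 and 131 CPM (0.50 (0.10 to 0.90)), higher by less than 1.5-fold. Ldha was at 500.3 and 507 CPM (0.02 (-0.16 to 0.20)) and Eno1 at 319 and 305 CPM (-0.07 (-0.29 to 0.16)), so enzymes of 1 pathway did not share a ratio. The transcripts of Hk3, Pfkm, Aldoc, Pfkfb4, Egln3, Adm and Bnip3 were too few to compare at this depth.

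S100a8 and S100a9 were at 99.1 and 10.1 CPM in CD8 T cells and at 4869 and 812.5 CPM in empty droplets. The share of free RNA estimated from both was 2.03% and 1.25% in CD8 T cells. The melanoma panel was at 31.0 and 7.24 CPM in them. Ndrg1 and Slc2a1 were at 115 and 78.4 CPM and 88.7 and 54.1 CPM in empty droplets. Subtraction of free RNA by S100a8 and S100a9 was run on the ratios in CD8 T cells, and its values for these 2 genes are not given here. The part of free RNA in the 2 ratios was not tested beyond that. Without cells that held a melanoma panel UMI, Slc2a1 had -0.70 (-1.52 to 0.13) and Ndrg1 -1.86 (-2.95 to -0.84). Of the other pathway genes 6 of 23 were higher, where 29.3% of all genes were higher and 7.75% lower. The median of the 23 was 0.07, beside 0.27 for all genes, so they were not set apart towards higher values. Among the 6 were Mif at 0.82 (0.64 to 0.99), Fam162a, a HIF-responsive mitochondrial gene, at 1.04 (0.60 to 1.49) and Bhlhe40, a transcription factor of activated T cells, at 0.74 (0.43 to 1.05). The 2 lower were Maff (-1.46 (-1.99 to -0.94)) and Plin2 (-1.19 (-2.26 to -0.15)). Cells positive for a cycling panel numbered 5 and 41 among CD8 T cells and are part of the ratios above. They held 63454 of 807581 and 381919 of 1381828 UMIs of the class. Their summed glycolysis list was at 7943 and 5616 CPM, against 3024 and 3288 CPM in cells with the effector panel alone. Among cells with the effector panel alone (82 and 173) the glycolysis median was 0.24 beside 0.21 for all genes, and among cells with the naive panel alone (52 and 36) it was -0.60 beside -0.06.

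**Figure D5:**
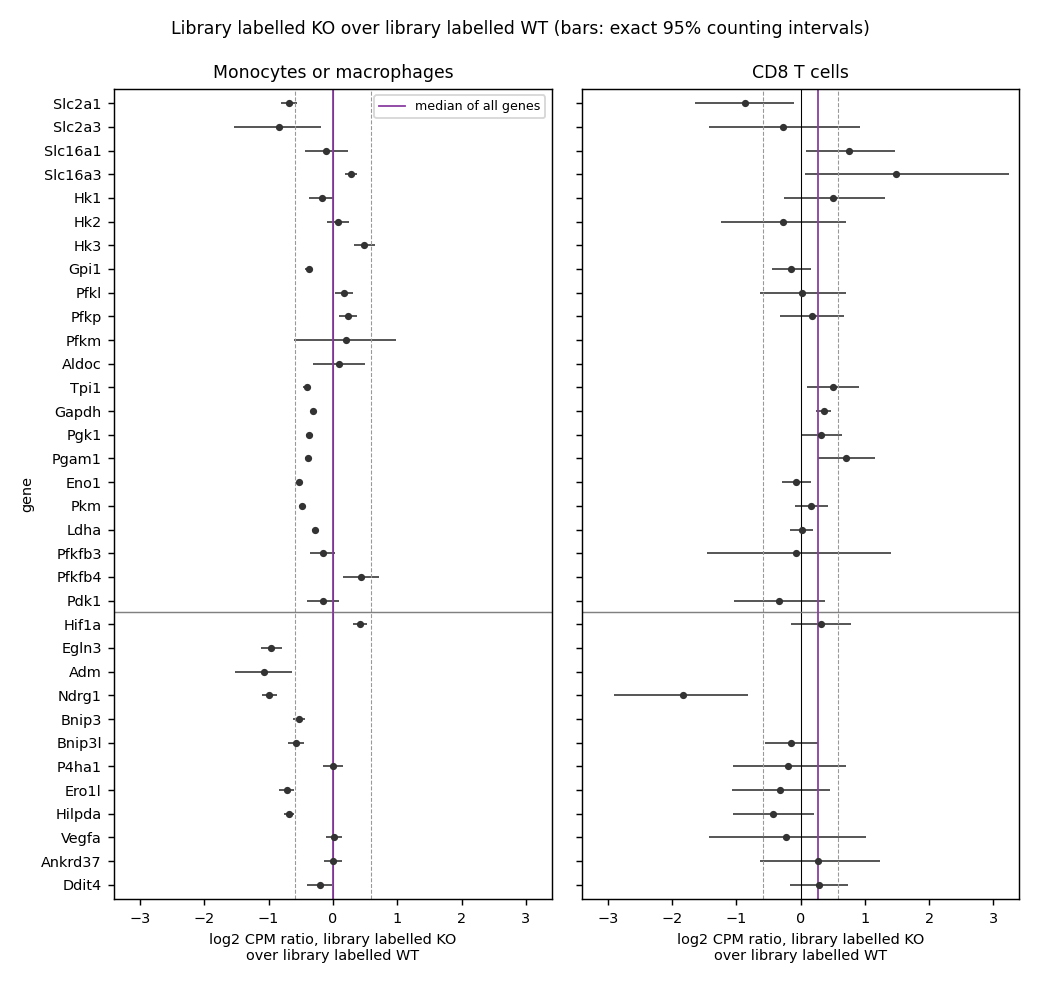
Log2 CPM ratio (x axis) of the KO-labelled over the WT-labelled library for each gene (y axis) in monocytes or macrophages (left) and CD8 T cells (right), with exact 95% counting intervals; dashed lines mark 1.5-fold, the purple line the median of all genes, and genes with under 20 UMIs have no point. Ndrg1 lies to the left in both classes, at -0.99 and -1.83, and the intervals in CD8 T cells are wide.

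In CD4 T cells 9 of the 13 glycolysis genes compared were lower in the library labelled KO and none was higher, on 51 and 83 cells. Of 18 members compared 10 were lower and 0 higher, where 11.7% of all genes were lower and 18.1% higher, and the glycolysis median was -0.77 beside 0.09 for all genes. Ldha was at 969 and 498 CPM (-0.96 (-1.31 to -0.61)), Pgk1 at 378 and 183 CPM (-1.05 (-1.64 to -0.47)) and Tpi1 at 207 and 62.3 CPM (-1.73 (-2.71 to -0.82)). Eno1 (-0.77 (-1.17 to -0.38)), Gpi1 (-0.86 (-1.53 to -0.20)) and Hilpda (-1.12 (-2.10 to -0.19)) also lay below 0 by their intervals, while those of Pgam1 (-0.61), Hk1 (-0.62), Pfkl (-0.83) and Pdk1 (-0.80) spanned 0. Of the other pathway genes compared, 3 of 10 were higher and 3 lower. Without the 4 cells that held a melanoma panel UMI, all of the library labelled WT, the glycolysis median was -0.72. Without the 2% of cells with the most UMIs in each library it was -0.27 and 4 members were lower, so the count rests on few cells.

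Melanoma transcripts differed between the libraries in Mature DC and cDC1, and several ratios there moved when cells that held them were left out. In Mature DC 13 of 28 members were lower and 1 higher in the library labelled KO, where 15.2% of all genes were lower and 13.5% higher. Gapdh was at 4510 and 2834 CPM (-0.67 (-0.76 to -0.58)), Tpi1 at 486 and 225 CPM (-1.11 (-1.42 to -0.80)) and Ero1l at 149.9 and 43.4 CPM (-1.79 (-2.53 to -1.12)). The melanoma panel was at 426 and 28.9 CPM in these cells. Without the 10 and 10 cells that held a UMI of it, the ratio of Gapdh was -0.19 (-0.29 to -0.09), that of Tpi1 -0.33 (-0.68 to 0.02) and that of Ero1l -0.33 (-1.20 to 0.49), and the glycolysis median went from -0.57 to -0.19. The sign changed for Eno1, from -0.49 (-0.68 to -0.30) to 0.23 (0.01 to 0.44), for Pgk1, from -0.52 (-0.76 to -0.28) to 0.17 (-0.09 to 0.44), and for the hypoxia median, from -0.16 to 0.05, and the 13 lower members became 3. Hilpda kept its ratio, -0.66 (-1.03 to -0.30) with and -0.75 (-1.13 to -0.38) without those cells. The others lower were Egln3, Hk1, Gpi1, Slc2a1, Pdk1, Ankrd37, Bnip3l, Pfkl and Pkm, and Adm was higher (0.65 (-0.14 to 1.43)).

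In cDC1 6 of 27 members were lower and 1 higher, where 10.9% of all genes were lower and 9.39% higher, and the melanoma panel was at 694 and 0.615 CPM. Eno1 was at 400.3 and 193 CPM (-1.05 (-1.26 to -0.84)) and Pgk1 at 290.3 and 181 CPM (-0.68 (-0.91 to -0.45)). Without the 10 and 1 cells that held a panel UMI they had -0.56 (-0.80 to -0.32) and -0.17 (-0.43 to 0.10), and Gapdh went from -0.55 (-0.63 to -0.47) to -0.04 (-0.13 to 0.05). Tpi1 (-0.73), Hilpda (-1.52), Ddit4 (-0.99) and Ankrd37 (-0.74) were also lower. With a gate that allowed for 20% free RNA 15 members were lower in cDC1 and 5 in Mature DC. In cDC2 3 of 32 members were lower and 3 higher, where 8.12% of all genes were lower and 8.95% higher. Egln3 was at 27.1 and 5.66 CPM (-2.26 (-3.35 to -1.31)), lower with Slc2a3 (-0.73 (-1.95 to 0.42)) and Bnip3l (-0.59 (-0.92 to -0.27)), and Slc16a1 (0.94 (-0.09 to 2.04)) and Vegfa (0.65 (-0.18 to 1.49)) were higher. The melanoma panel was at 9.86 and 8.74 CPM in cDC2, and the medians hardly moved without panel-positive cells (-0.15 and -0.22).

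Hk3 had ratios above 0 by their intervals in 6 myeloid groups, of which the macrophage subsets share cells with each other and with the whole class. It was higher in the library labelled KO in cDC1 (2.64 and 12.9 CPM; 2.29 (0.55 to 4.68)), in cDC2 (2.96 and 12.9 CPM; 2.12 (0.80 to 3.69)) and in Ly6c2-positive cells, and above that labelled WT by less than 1.5-fold in monocytes or macrophages as a whole and in Arg1-positive and C1qa-positive cells. By marker pattern its ratio was above 0 by the interval in cells with Arg1 alone, with Ly6c2 alone and with both C1qa and Ly6c2. The interval spanned 0 in cells with both Arg1 and C1qa (-0.02 (-0.40 to 0.36)), with C1qa alone (0.22 (-0.10 to 0.53)) and with no marker (0.24 (-0.16 to 0.64)). Gapdh and Tpi1 had ratios below 0 in monocytes or macrophages, Arg1-positive cells, C1qa-positive cells and the 3 dendritic cell classes, and above 0 in Ly6c2-positive cells. Without cells that held a melanoma panel UMI, the intervals of Gapdh in cDC1 (-0.04 (-0.13 to 0.05)) and of Tpi1 in Mature DC (-0.33 (-0.68 to 0.02)) spanned 0. Those of Gapdh in Mature DC, of Tpi1 in cDC1 and of both genes in cDC2 stayed below 0. Hk3 was at 34.3 and 24.0 CPM in empty droplets. The share of free RNA, estimated from S100a8 and S100a9, was 2.67% and 7.40% in cDC2 and 2.76% and 9.25% in Ly6c2-positive cells. In cDC1 this share was 0.76% and 0.38%. The cause of the Hk3 ratios was not tested. In Mature DC Hk3 had too few UMIs to compare. The intervals of Hk1 and Hk2 spanned 0 in monocytes or macrophages, with log2 ratios of -0.17 (-0.37 to 0.02) and 0.08 (-0.10 to 0.26).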

How the data were processed

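Droplet-based 5′ RNA libraries of leukocytes sorted from B16 tumours were analysed, 1 per genotype. The T cell receptor libraries were not used here. The matrices as deposited by the authors give a UMI count for each gene in each barcode, neither normalised nor filtered for cells; the submitters' processing notes name Cell Ranger 3.1.0 and mm10, and further, without saying for what, Seurat 3.2.0 and R 3.6.1. Barcodes with at least 1000 UMIs, at least 500 genes and at most 10% mitochondrial UMIs were kept as cells. A panel or marker was positive with at least 2 UMIs and above the 99% Poisson quantile of what free RNA at 10% of the cell's UMIs would give, from the same library's empty droplets. A class needed 3 times the UMIs of every other positive panel; cells without a clear panel (mixed, 380 and 207; none, 356 and 405) stood aside, as did T cells without subset markers (296 and 314). Melanoma cells needed at least 1% of UMIs in their panel. No doublet caller was run, and doublets of 2 classes should fall mostly into the mixed cells.

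UMIs were summed per class and library to CPM with exact Poisson intervals, ratios with exact conditional binomial intervals, and shares with exact Clopper-Pearson intervals, at the 95% level; they cover counting error only. A 0 was set to a floor of 3 counts in medians. The 35 other pathway genes leave out Aldoa, which had 2 identifiers. Members past 1.5-fold are named, and those whose interval bound lay farthest from 0 have full values. The members, lists and markers were chosen with earlier results of these data known. Python 3.11.15, NumPy 2.4.6, SciPy 1.17.1 and pandas 2.3.3 were used. The ratios were also computed on simulated Poisson counts from 1 pooled profile. Such counts hold no spread between cells or mice, so they check the counting step only. Alternatives changed the cell filters, the gate, the size factor, the weight of cells, the UMI minimum, the free RNA, the make-up by markers and the melanoma transcripts; the last of these, the S100a8 and S100a9 subtraction, the leaving out of shared barcodes and of cycling cells, and the Ly6c2 contrast within Arg1-negative cells were chosen after seeing the data.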

Additional observations from a re-analysis of the deposited data

Results flagged for a closer look

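For 5 members log2 ratios of the KO-labelled over the WT-labelled library had opposite signs in 2 classes, with neither interval reaching 0. These differences between classes were not tested. Ratios in CD8 T cells include the cells of the cycling panel, 5 and 41 of 221 and 359 cells. Tpi1 was at 0.50 in CD8 T cells and at -1.73 in CD4 T cells, a gap of 2.23. Pgk1 was at 0.32 and -1.05 in the same classes, a gap of 1.37, with a lower bound of 0.01 in CD8 T cells, where it was at 0.26 with an interval from -0.06 to 0.59 without cells that held a melanoma panel UMI. Gapdh was at 0.36 in CD8 T cells and at -0.67 in Mature DC, a gap of 1.03, and at -0.19 in Mature DC without cells that held a melanoma panel UMI. Pgam1 was at 0.70 in CD8 T cells and at -0.39 in monocytes or macrophages, a gap of 1.09. Ndrg1 was at 0.47 in cDC1 and at -1.83 in CD8 T cells, a gap of 2.30; in cDC1 without cells that held a melanoma panel UMI it was at 0.43 with an interval from -0.06 to 0.93.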

How the results depend on the processing

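With 1 pooled library per genotype no spread between mice is known, and all intervals cover counting error only. No paired analysis was possible because the groups have 1 library each. The planned subtraction of free RNA by haemoglobin was not run, since the empty droplets of the library labelled KO held 24 haemoglobin UMIs, and S100a8 and S100a9 were used instead. In CD8 T cells the medians of the glycolysis list (-0.17 to 0.22) and of the hypoxia list (-0.46 to 0.08) changed sign, and the 3 members higher became 5 at 5% mitochondrial UMIs, 5 with a minimum of 1 UMI, and 1 each with the median-of-ratios factor, equal weight per cell and equal marker make-up. In C1qa-positive cells the glycolysis median ranged from -0.14 to 0.08, and the 2 members higher became 0 at 5% mitochondrial UMIs and 1 each at 2000 UMIs and 800 genes, with a plain gate of 2 UMIs, with S100a8 and S100a9 subtracted and without cells with a melanoma panel UMI. In Mature DC the hypoxia median ranged from -0.63 to 0.14, the 13 members lower became 5 with the gate for 20% free RNA and 3 without cells with a melanoma panel UMI, and Eno1, under 1.5-fold, went from -0.49 to 0.23 there. The 10 members lower in CD4 T cells became 4 without the 2% of cells with the most UMIs and 6 with a minimum of 50 UMIs. The 6 lower in cDC1 became 15 with the gate for 20% free RNA and 11 each with a plain gate of 2 UMIs and with a minimum of 1 UMI, and the 3 higher in cDC2 became 1 each with that plain gate and with a minimum of 50 UMIs. The glycolysis and hypoxia medians kept their sign in the other groups, from -0.58 to -0.30 and from -0.83 to -0.72 in Arg1-positive cells, from 0.39 to 0.59 and from 0.60 to 0.89 in Ly6c2-positive cells, from -0.86 to -0.27 and from -0.31 to -0.06 in CD4 T cells, from -0.54 to -0.23 and from -0.97 to -0.20 in cDC1 and from -0.20 to -0.10 and from -0.31 to -0.20 in cDC2, as in monocytes or macrophages.

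Cells positive for 1 marker alone gave hypoxia medians of 2.67 and 2.45 for Arg1, medians of -0.80 and -2.38 (library labelled WT) and -0.74 and -1.85 (KO, 26 members lower) for C1qa, and -0.52 and -0.83 with 18 members lower for Ly6c2 in the library labelled KO. Equal weight per cell gave 8 lower members there. Within Arg1-negative cells of the library labelled WT the Ly6c2 medians were -0.42 and -0.60 with 15 members lower, and Ndrg1 reversed to 0.24. The cause of these changes was not tested, and the share of all genes past the fold is not given for these counts. A list median was scored as moved when it shifted by at least the median half-width of its members' intervals, and a count when it changed by over 1.5 times. This is a wide allowance where UMIs are few. For the glycolysis list in CD4 T cells the half-width was 0.78, so even its median of -0.27 was not scored as moved. Under this rule, 33 list medians and counts moved and 486 did not, which does not show that the 486 were stable. Of the values for single members, 339 moved by more than their counting interval, 3031 did not, and 1 that was past 1.5-fold, that of Ndrg1, reversed.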
